A study of Mus musculus with 44 samples.

Results

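The break beside Samhd1 is a double-strand break made by the restriction endonuclease AsiSI on mouse chromosome 2, and its junctions were all HTGTS prey junctions within 500 bp of the cut in the motif at chr2:157135295-157135302 (mm10). HTGTS, high-throughput genome-wide translocation sequencing, amplifies DNA from a fixed bait break and records where on the genome the bait end was joined. The place reached is the prey. In 32 libraries, 1752 of 148726 junctions lay at this break, 1736 of them in the 26 libraries with the AsiSI bait and 16 in the 6 libraries with a Cas9 bait. The site was selected on a measured value, its number of junctions, which ranked 5 among AsiSI motifs in the 6 DMSO libraries of the CK-666 experiment, so its share in those libraries is given as a description.

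All libraries came from mouse embryonic fibroblasts (MEFs) of strain C57BL/6 whose genotype the labels give as WT. Per the study's methods the 26 AsiSI-bait libraries were made from AsiSI-MEFs, which carry a doxycycline-inducible AsiSI fused to a truncated estrogen receptor, and the 6 Cas9-bait libraries from WT MEFs without it. AsiSI cells received doxycycline at 3 µg/ml for 24 h and 4-hydroxytamoxifen (4OHT) at 1 µg/ml for the last 6 h, controls included, and the labels name 4OHT for the Cas9 libraries too, which were lysed 48 h after the guide. Treated and control libraries shared replicate numbers. There were 6 libraries of CK-666, an inhibitor of the actin nucleator ARP2/3, at 100 µM against 6 of DMSO, and 3 of NU7441, an inhibitor of the end-joining kinase DNA-PKcs, at 10 µM against 3 of DMSO. There were 2 of wiskostatin, an inhibitor of the ARP2/3 activator WASP, at 3 µM against 2 of DMSO, 2 of actin R62D-NLS, a nuclear-targeted actin that does not polymerize, against 2 of empty vector, and, with the Cas9 bait, 3 of CK-666 against 3 of DMSO. No untreated AsiSI-MEF library without 4OHT was analysed here.

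Samhd1 encodes a dNTP triphosphohydrolase that restricts retroviruses by lowering nucleotide pools and that also takes part in the processing of broken DNA ends. AsiSI recognizes an 8-base palindrome and leaves short 3′ overhangs. Ends are rejoined by classical non-homologous end-joining, which depends on DNA-PKcs and tolerates blunt or briefly matching ends, or by alternative end-joining, which anneals longer stretches of shared bases (microhomology). An end may lose bases (resection) before it is joined.

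The motif lies in the promoter of Samhd1 (ENSMUSG00000027639, minus strand, chr2:157097533-157135265), 34 bp upstream of the most upstream GENCODE start and 203 bp upstream of the RefSeq start. It is intergenic by GENCODE, and the first coding base is 117 bp away. The bait motif, at chr2:13271317-13271324, is 143.9 Mb away on the same chromosome. Both sequences are printed on the plus strand of GRCm38 with the AsiSI motif in capitals, because the bases that flank the motif decide how each end can be read in a junction:
Bait, chr2:13271306-13271335: accctgtcccaGCGATCGCgcaggcgcaca
Samhd1, chr2:157135266-157135346: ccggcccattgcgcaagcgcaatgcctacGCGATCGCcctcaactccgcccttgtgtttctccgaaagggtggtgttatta

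The motif GCGATCGC, which reads the same on both strands, occurs 1109 times on the mouse chromosomes used, and in 73 of 32851 RefSeq promoters of 300 bases (0.222%). On the Samhd1 side, 5 bases left of the motif, lies a perfect inverted repeat with arms of 8 bases (capitals) around a loop of 2, at chr2:157135272-157135289:
Inverted repeat: CATTGCGCaaGCGCAATG

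Outside the motif itself, such a repeat (arms of at least 8 bases, loop of at most 10) lay within 50 bp of 24 of the 1109 motifs (2.16%), and of 7 of the 250 motifs with enough junctions to be tested.

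The break took between 0.308% and 2.33% of the junctions lying over 10 kb from the bait in the 26 AsiSI-bait libraries, which held 335 to 17479 such junctions each. This share is the measure used throughout, and 41.5% to 87.5% of those junctions lay within 500 bp of any AsiSI motif. In the 6 DMSO libraries that chose the site, the share was 1.36% at the lowest, 1.97% at the median and 2.30% at the highest. In the 7 control libraries that took no part in the choice, it was 1.48% ± 0.376 (SD, n = 7). There the 3 NU7441 controls held 0.985%, 2.01% and 1.30%, the 2 wiskostatin controls 1.19% and 1.71%, and the 2 empty vector libraries 1.83% and 1.30%. The break ranked 6 among all motifs by junctions in those 7 libraries, and 6 in all 26.

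Among the motifs nearest to it that received junctions, the one 34 bp from the start of Soga1, 56079 bp toward the bait, held 258 junctions in 26 libraries, and the one 344 bp from the start of Src, a proto-oncogene encoding a tyrosine kinase, 289338 bp further on, held 590. In the 7 control libraries that took no part in the choice, their shares were 0.266% ± 0.195 and 0.456% ± 0.128 (SD, n = 7), and the Samhd1 share was higher than either in 7 of 7 libraries. The breaks at Romo1, Dnmt3b and Arhgap21, also on chromosome 2, served for comparison. Romo1 encodes a mitochondrial modulator of reactive oxygen species and Dnmt3b a de novo DNA methyltransferase. The breaks at Romo1, Dnmt3b and Arhgap21 took 2.62% ± 0.723, 2.01% ± 0.974 and 1.495% ± 0.463 of the junctions in the same libraries (SD, n = 7). The Samhd1 share was higher than that of Arhgap21 in 3 of the 7 libraries and than that of Dnmt3b in 2, so these 3 neighbours in the order overlapped, while it was lower than that of Romo1 in all 7.

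**Figure D1:**
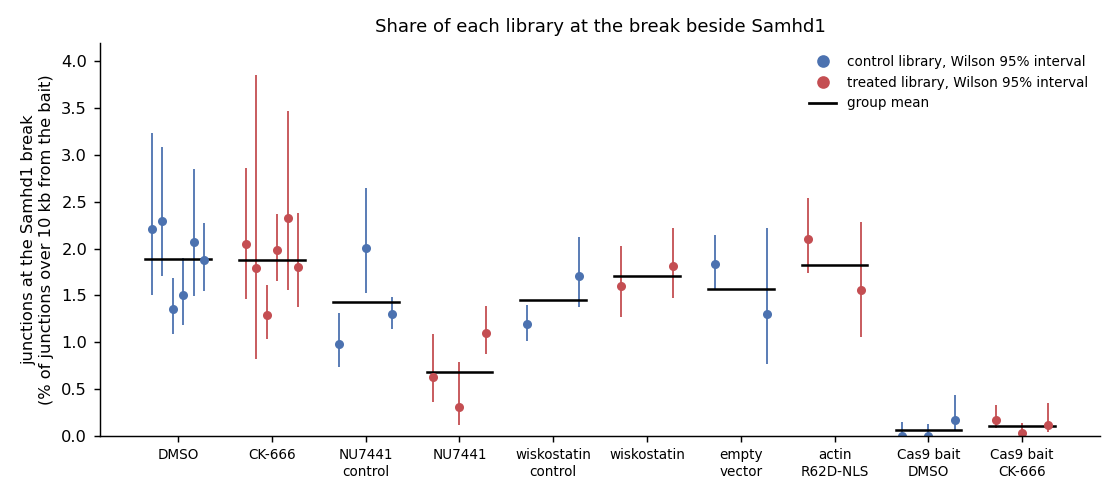
Each point is a library's share of junctions at the Samhd1 break (percent of junctions over 10 kb from the bait) with its Wilson 95% interval, and black lines are group means. The 3 NU7441 libraries lie between 0.308% and 1.10%, and no Cas9-bait library exceeds 0.169%.

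With the Cas9 bait, the break was nearly empty. Per the study's methods these libraries came from WT MEFs without AsiSI, so the design provides no enzyme to cut beside Samhd1. The DMSO libraries held 0 of 2536, 0 of 3154 and 4 of 2376 junctions, and the CK-666 libraries 8 of 4731, 1 of 4069 and 3 of 2548. A count of 0 allows a share of up to 0.118% and 0.0951% in the first 2 libraries (3 counts of the total). The mean share of the 3 Cas9 DMSO libraries, 0.0561%, was 1.42 percentage points below that of the 7 control libraries with the AsiSI bait, and the groups did not overlap (exact permutation test, p = 0.0167, 2-sided, the smallest that 3 against 7 allows). Cells, nuclease and treatment differ together with the bait, so the test does not separate them. Its direction was set by the design, since the Cas9 cells carry no AsiSI, so the p-value says nothing particular to this break. All AsiSI motifs together took 0.539% to 6.74% of the junctions in the Cas9 libraries, against 41.5% to 87.5% in the AsiSI-bait libraries. The 16 junctions had the features of AsiSI junctions: each of the 16 had the same prey position, strand, bait end and overlap as a junction in the 24 AsiSI-bait libraries of other sequencing runs, and 12 matched one in the 2 AsiSI-bait libraries sequenced in the same run. When the far end of the prey alignment had to match as well, 4 and 1 did. Where these 16 came from was not tested.

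No difference in the share beyond the spread of the pairs was found with CK-666. The 6 CK-666 libraries held 1.29% at the lowest, 1.89% at the median and 2.33% at the highest, a range nearly the same as that of their DMSO controls. The log2 ratio of the shares was 0.01 ± 0.21 (SE; limma, adjusted p = 0.985; 6 pairs), and the share was higher with CK-666 in 2 of 6 pairs (exact sign-flip test, p = 0.906). None of the 250 tested motifs was called with CK-666 (0%), and 13 had an unadjusted p under 0.05. The controls of this contrast are the libraries that chose the site. In the 4 pairs of one sequencing run the mean log2 ratio was 0.12, and in the 2 pairs of the other -0.19.

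With NU7441 the share was lower in 3 of 3 pairs. It was 0.622% against 0.985% in replicate 1 (12 against 45 junctions), 0.308% against 2.01% in replicate 2 (4 against 49), and 1.10% against 1.30% in replicate 3 (70 against 227). The treated and control groups overlapped, since the highest NU7441 library lay above the lowest control. The log2 ratio was -1.13 ± 0.30 (SE, limma, adjusted p = 0.0258), rank 7 from the lowest of 250 motifs, whose median log2 ratio was 0.20. This SE draws on the spread in all the AsiSI-bait libraries. The log2 ratios of the 3 NU7441 pairs themselves had an SD of 1.24. Of the 250 motifs, 12 were called (4.8%), 9 lower (3.6%) and 3 higher (1.2%), and Romo1 was also called lower, at -0.85 ± 0.25 (adjusted p = 0.0458). The call rested on replicate 2: without that pair the log2 ratio was -0.42 (adjusted p = 0.433). Without the pairing of replicates the adjusted p was 0.0580 and 2 of the 250 motifs were called, and counting each position and strand once per library gave -0.63 (adjusted p = 0.433). The exact sign-flip test over the 3 pairs gave p = 0.25, the smallest it can give. Within sequencing runs, the mean log2 ratio was -1.59 over the 2 pairs of one run and -0.23 in the pair of the other.

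Wiskostatin and actin R62D-NLS each had 2 pairs, and the share was higher with treatment in both pairs of each. Wiskostatin libraries held 1.60% and 1.81% against 1.19% and 1.71%. The actin R62D-NLS libraries held 2.10% and 1.55% against 1.83% and 1.30%. The log2 ratios were 0.26 ± 0.37 and 0.21 ± 0.37 (SE; limma, adjusted p = 0.993 and 0.986), and neither treatment called any of the 250 motifs (0%), with 7 and 12 at an unadjusted p under 0.05. The direct difference between CK-666 and NU7441 at this break was 1.15 ± 0.37 on the log2 scale (limma, adjusted p = 0.171 over 250 motifs), that between NU7441 and wiskostatin -1.39 ± 0.48 (adjusted p = 0.414), and that between NU7441 and actin R62D-NLS -1.35 ± 0.48 (adjusted p = 0.204). A share cannot show a change in the number of rearrangements that is the same at every site.

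**Figure D2:**
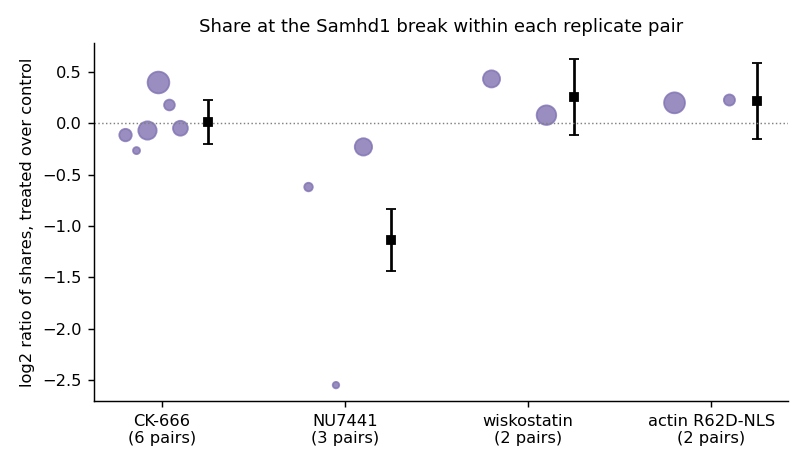
Each circle is the log2 ratio of the share at the Samhd1 break, treated over control, in a replicate pair, with its area growing with the junctions in the treated library; squares are limma estimates with their SE. The lowest circle is NU7441 replicate 2, whose treated library held 4 junctions, and the CK-666 pairs lie on both sides of 0.

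The junctions clustered at the cut. Of the 1736 junctions, 1045 (60.2%) lay within 10 bp of it, 1538 (88.6%) within 50 bp and 60 (3.46%) beyond 100 bp, with a median distance of 4 bp. The farthest junctions inside the limit lay at 469 and 485 bp and the nearest outside at 541 and 570 bp, and 6 lay between 400 and 500 bp and 6 between 500 and 600 bp. Positions recurred: 202 combinations of position and strand were found, 10 of them held 835 junctions (48.1%), and 1640 junctions (94.5%) were at positions seen in at least 2 libraries.

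Strand and side tell which end of the prey break was joined. The bait reads toward the telomere, so a prey on the plus strand that starts right of the cut has the form that loss of the 143.9 Mb between the breaks would leave, and a prey on the minus strand that starts left of the cut has the form of an inversion. A join to the other copy of chromosome 2 reads the same. The minus strand held 964 junctions (55.5%) and the plus strand 772 (44.5%). Bases lost were counted from the outer edge of the motif, so a junction that keeps the whole motif has lost 0 and an end joined as the enzyme leaves it has lost 3 to 5.

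**Figure D3:**
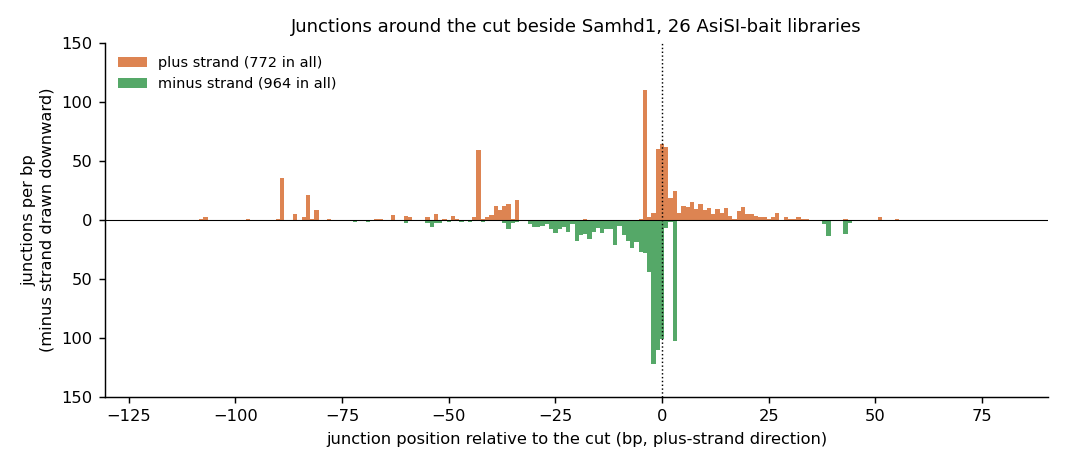
Junctions per bp around the cut (position 0) in the 26 AsiSI-bait libraries, plus strand upward and minus strand downward. Both strands peak at the cut, each with a spike where the whole motif was kept (110 junctions on the plus strand at -4 bp, 103 on the minus strand at 3 bp), and the plus strand has further spikes left of the cut, at -43 bp with 59 junctions and at -89 bp with 35.

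A loss of 3 to 5 bases accounted for 333 of the minus-strand and 186 of the plus-strand junctions, 36.5% and 35.4% of those on their own side of the cut. No loss was found in 104 (11.4%) and 111 (21.1%) of them. The median loss there was 6 bases on the minus strand and 5 on the plus strand. Loss reached further on the minus strand, which runs toward the Samhd1 gene: 22.7% of its own-side junctions had lost over 20 bases and 3.29% over 100, against 11.6% and 0.762% on the plus strand. In the 13 control libraries the median loss was higher on the minus strand in 9 and on the plus strand in 1. The library medians averaged 6.08 bases ± 2.65 on the minus and 4.15 ± 1.70 on the plus strand (SD, n = 13). Whether this difference between the ends is particular to this break was not tested.

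The commonest joins show these classes. Each is printed from the reads from 12 bases before the bait motif to the 24th base of the prey, with bases shared by bait and prey, or inserted between them, in capitals:
Plus strand, motif kept (62 junctions): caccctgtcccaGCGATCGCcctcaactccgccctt
Minus strand, motif kept (47 junctions): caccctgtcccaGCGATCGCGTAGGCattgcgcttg
Minus strand, blunt, loss of 5 bases (22 junctions): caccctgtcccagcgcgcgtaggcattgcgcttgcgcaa
Minus strand, blunt, loss of 4 bases (22 junctions): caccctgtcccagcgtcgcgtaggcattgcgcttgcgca

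The first 2 joins were present in 26 of 26 libraries and the blunt joins in 18 and 20. The minus-strand join with the motif kept is listed with an overlap of 14 bases, because bait and prey differ at only 1 of the 6 bases after the motif, and 47 of the 52 overlaps of 14 bases held 1 mismatch.

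Overlap lengths fell into separate classes. Blunt joins made up 437 junctions (25.2%), overlaps of 1, 2 and 3 bases 341, 210 and 103, and overlaps of 4 and 5 bases 30 and 20. Overlaps of 6 or more were counted in 287 junctions (16.5%). Of these, 158 (55.1%) held the whole motif, 71 on the plus and 87 on the minus strand, and 134 (46.7%) had at least 1 mismatch within the overlap as aligned. A join that keeps the whole motif is the sequence that matching overhangs of both breaks give. Insertions of 1 to 30 bases were found in 308 junctions (17.7%), 83 of them of 1 base.

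**Figure D4:**
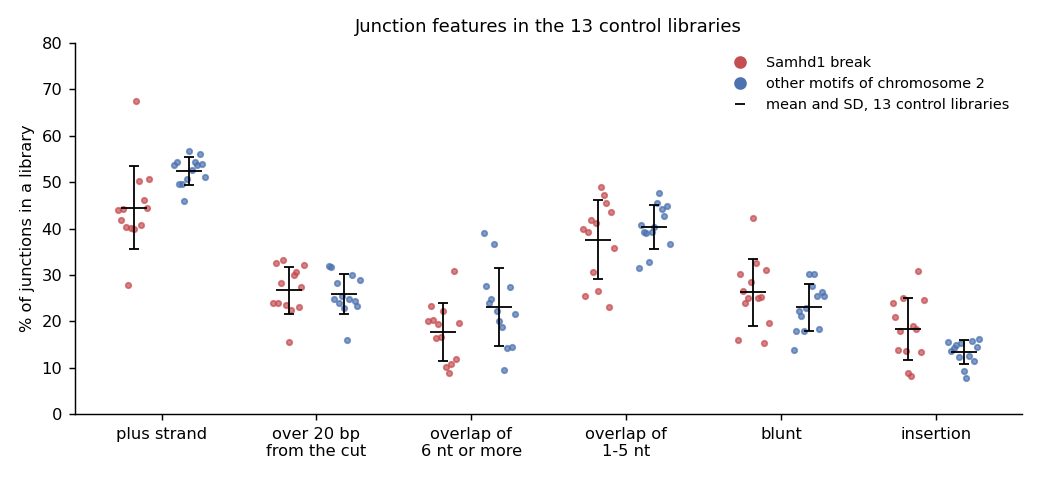
Percent of junctions with each feature in the 13 control libraries, at the Samhd1 break (red) and at all other AsiSI motifs of chromosome 2 together (blue), each point a library, with mean and SD. The Samhd1 points lie lower for the plus strand (44.5% against 52.4%) and for overlaps of 6 or more (17.7% against 23.2%), and higher for insertions (18.4% against 13.4%).

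Against the 34 other motifs of chromosome 2 that received junctions in the 13 control libraries, Samhd1 had fewer plus-strand prey, fewer long overlaps and more insertions. These values are not all unusual. Among 198 motifs with at least 100 junctions in the 26 libraries, its plus-strand share had rank 126 from the highest. Its long overlaps had rank 192 and its insertions rank 32. The plus strand took 44.5% ± 8.91 at Samhd1 and 52.4% ± 2.99 elsewhere (SD, n = 13), a difference of -7.99 points, lower in 12 of 13 libraries (exact sign-flip test over libraries, adjusted p = 0.0215 over 24 tests). Overlaps of 6 or more took 17.7% ± 6.18 against 23.2% ± 8.37, lower in 11 of 13 (exact sign-flip test, adjusted p = 0.0183). Insertions took 18.4% ± 6.69 against 13.4% ± 2.56, higher in 9 of 13 (exact sign-flip test, adjusted p = 0.0252). Junctions over 20 bp from the cut (26.7% against 25.9%), overlaps of 1 to 5 bases (37.6% against 40.4%) and blunt joins (26.3% against 23.1%) did not pass (exact sign-flip test, adjusted p = 0.616, 0.327 and 0.123). In the 7 control libraries not used to choose the site, the differences in plus strand, long overlaps and insertions were -5.52, -1.69 and 5.06 points. None passed (exact sign-flip test, adjusted p = 0.433, 0.485 and 0.281). With 7 libraries the smallest p of this test is limited, and over 24 tests a pass needs many differences to reach it. The lack of a pass there therefore decides nothing. The long-overlap difference was also smaller in size there than the -5.41 points over all 13 control libraries, which include the 6 that chose the site.

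Against the 3 single breaks, Samhd1 had fewer junctions over 20 bp from the cut than each of the 3: 26.7% against 34.6% at Romo1, 40.9% at Dnmt3b and 45.7% at Arhgap21 (exact sign-flip test, adjusted p = 0.0183, 0.00732 and 0.00293; lower in 10, 12 and 13 of 13 libraries). In the 7 control libraries not used to choose the site, none of these 3 differences passed (exact sign-flip test, adjusted p = 0.281, 0.125 and 0.125). The smallest p that 7 libraries allow limits this test too, so the lack of a pass decides nothing. The plus strand took 43.7% at Romo1, 0.773 points below Samhd1 (exact sign-flip test, adjusted p = 0.745), but 63.0% at Dnmt3b and 55.6% at Arhgap21 (adjusted p = 0.00293 and 0.0141), differences that did not pass when each position and strand was counted once per library (exact sign-flip test, adjusted p = 0.0842 and 0.449). Long overlaps were commoner at Samhd1 than at Arhgap21, 17.7% against 10.8% (exact sign-flip test, adjusted p = 0.00391; 12 of 13 libraries), while Romo1 and Dnmt3b each had 16.6%, which did not pass (exact sign-flip test, adjusted p = 0.581 and 0.616). Insertions took 16.3% at Romo1, 20.9% at Dnmt3b and 21.1% at Arhgap21, so the Samhd1 value of 18.4% lay between them, and none of the 3 differences passed (exact sign-flip test, adjusted p = 0.327 each). Overlaps of 1 to 5 bases were rarer than at Romo1, 37.6% against 44.6% (exact sign-flip test, adjusted p = 0.0183), but not past the threshold when each position and strand was counted once per library (exact sign-flip test, adjusted p = 0.0842). Over the 26 libraries, the whole motif was kept in 9.10% of Samhd1 junctions, rank 193 from the highest of 198 motifs with at least 100 junctions, whose median was 28.7%. At the 3 single breaks it was kept in 8.56% at Romo1, 8.2% at Dnmt3b and 5.48% at Arhgap21.

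The break was asymmetric in a second way. Of the plus-strand junctions, 247 of 772 lay past the cut, that is, they started left of the motif, more than 8 bases beyond the side from which a plus-strand end comes, against 52 (5.39%) of the minus-strand junctions. These 299 junctions held 298 of the 499 that lay over 20 bp from the cut. In the 13 control libraries the share past the cut was 33.4% ± 14.1 on the plus and 4.77% ± 3.49 on the minus strand (SD, n = 13), and it was higher on the plus strand in 13 of 13. The pattern was picked out after its values were seen and carries no test. The plus-strand share less the minus-strand share, 26.6 points, had rank 9 from the highest among the 198 motifs (median -0.01 points), and by size alone, whichever strand led, the gap had rank 19 (median 6.60 points). At Romo1 the shares were 32.2% and 22.0%, while at Dnmt3b and Arhgap21 the minus strand led, with 60.3% against 17.4% and 50.8% against 8.87%, larger gaps than at Samhd1.

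**Figure D5:**
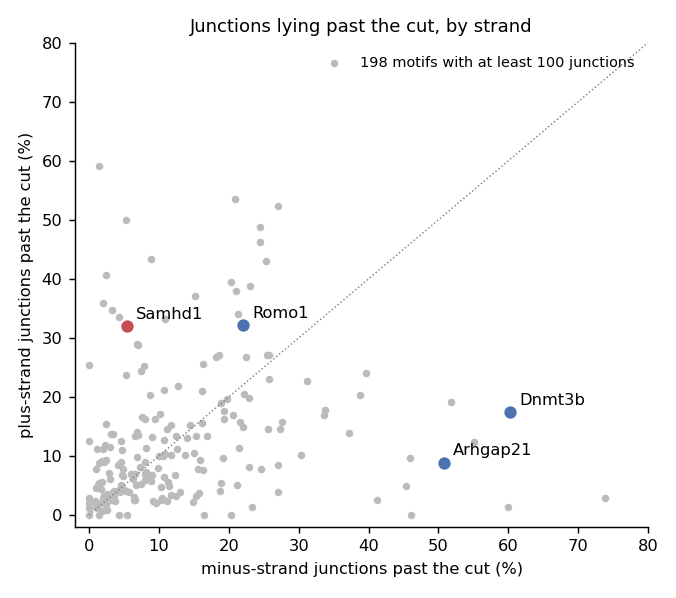
Percent of plus-strand junctions (vertical) against percent of minus-strand junctions (horizontal) that lie past the cut, for 198 motifs with at least 100 junctions in 26 libraries. Samhd1 (red) sits above the diagonal at 32% and 5.39%, Dnmt3b and Arhgap21 (blue) far below it.

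In 95 of the 174 junctions past the cut with an insertion, the bases after the bait motif matched an end of the same break. Of the 247 plus-strand junctions past the cut, 91 (36.8%) had a prey alignment that ended at the motif. The leading positions were 157135256, 43 bp left of the cut, with 59 plus-strand junctions in 23 libraries, and 157135210, with 35 in 17 libraries. The commonest join at each is printed with the inserted bases in capitals:
157135256 (22 junctions): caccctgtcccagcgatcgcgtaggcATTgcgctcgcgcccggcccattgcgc
157135210 (21 junctions): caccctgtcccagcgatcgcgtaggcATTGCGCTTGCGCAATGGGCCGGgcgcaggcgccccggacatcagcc

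In both, the bases between the bait motif and the prey continued the minus-strand end of the same break, as printed in the blunt joins, before the read turned to the plus strand, and the second runs through the whole inverted repeat. Of the 138 plus-strand junctions past the cut with an insertion, the bases after the motif matched the minus end in 73, found in 23 of 26 libraries, and of the 36 minus-strand ones they matched the plus end in 22. Among the 134 junctions with an insertion on their own side, 1 matched either end, but most could not be compared. In 100 minus-strand and 30 plus-strand ones the bait stopped short of the motif end, which left no bases after it. Past the cut this held for 61 plus-strand and 6 minus-strand junctions, and 7 minus-strand ones had under 4 bases there. The 2 groups therefore cannot be set against each other. As a part of all insertions, inserts that matched an end of their own break were about as common here as elsewhere. In the 13 control libraries they made up 54 of 182 insertions at Samhd1 (29.7%) and 524 of 1777 at the other motifs of chromosome 2 (29.5%), each matched to the ends of its own break. As a part of all junctions they were 54 of 1056 at Samhd1 and 524 of 12871 at the other motifs, which was not tested. With them left out at every motif, insertions took 12.5% ± 5.04 at Samhd1 and 8.89% ± 1.92 elsewhere (SD, n = 13; exact sign-flip test, p = 0.0325, higher in 8 of 13), in a comparison added after the values were seen. Without junctions past the cut at any motif, the plus strand took 35.9% ± 11.4 at Samhd1 and 53.9% ± 3.79 at the other motifs of chromosome 2 (SD, n = 13). It was lower at Samhd1 in 12 of 13 libraries. Over the 26 libraries this step takes 247 plus-strand but 52 minus-strand junctions from Samhd1, so it lowers the plus-strand share there by construction. It was also chosen after the values were seen, so the comparison carries no test.

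CK-666 went with more long overlaps at this break in 6 of 6 pairs, by 4.45 points ± 3.78 (SD), from 19.3% to 23.8%. The exact sign-flip test gave p = 0.03125, the smallest it can give, and the difference did not pass after adjustment over the 6 measures (exact sign-flip test, adjusted p = 0.188). At the other motifs of chromosome 2 the same difference was 4.35 points ± 7.51, higher in 4 of 6 pairs. The other 5 measures differed between CK-666 and DMSO by -2.07 to 5.64 points (exact sign-flip test, adjusted p from 0.75 to 0.8125).

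With NU7441, long overlaps were higher in 3 of 3 pairs and blunt joins lower in 3 of 3. Long overlaps took 25%, 75% and 14.3% of junctions with NU7441 against 22.2%, 10.2% and 8.81%, and blunt joins 33.3%, 0% and 14.3% against 42.2%, 32.7% and 25.1%. The 75% and 0% rest on the 4 junctions of replicate 2. The exact sign-flip test gave p = 0.25 for each, the smallest it can give (adjusted p = 0.75). At the other motifs of chromosome 2, long overlaps were 16.7 points higher ± 9.98 and blunt joins differed by -6.42 points ± 4.77 (SD, 3 of 3 pairs each). Wiskostatin and actin R62D-NLS differed from their controls in long overlaps by 2.67 and -0.732 points and in blunt joins by -0.0544 and -0.849 points, each with 1 pair up and 1 down.

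Across the 26 libraries, the motif whose share followed that of Samhd1 most closely was near Fat4, an atypical cadherin, on chromosome 3 (Pearson r = 0.856 of log2 shares), then the one at Romo1 (0.815), and then one 7 bp from the start of Dvl3, a Wnt pathway protein, on chromosome 16 (0.788). The median over 249 motifs was 0.192, and Dnmt3b and Arhgap21 stood at 0.635 (rank 20) and 0.570 (rank 31). All points share their libraries, totals and depth.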

How the data were processed

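HTGTS junction tables, 1 per library, were used as the authors deposited them: each row gives a junction's prey position, strand and alignment and the bait alignment, in genome coordinates of mm10 and read coordinates, with no other unit and no normalization. The aligner version was not given in the sources used here. The 12 Hi-C samples were not analysed here. Mouse motifs and starts came from GRCm38 and GENCODE; promoters from RefSeq.

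Junctions over 10 kb from the bait formed the total, and each was assigned to a motif within 500 bp. Members, comparators and lists were chosen with earlier results of these data known. Shares were compared on log2((junctions + 0.5) / (total + 1) × 1000) with limma 3.58.1 in R 4.3.3, in 1 fit over 26 libraries with replicate pair as a block, for the 250 motifs with at least 10 junctions per experiment on average, and Benjamini-Hochberg adjustment at 0.05. On simulated data, log2 changes of 2 were recovered for 62.5% of changed motifs for CK-666 and 42.5% for NU7441, and changes of 1 for 27.5% and 2.5%. For wiskostatin and actin R62D-NLS, changes of 2 were recovered for 32.5% and 27.5%, and changes of 1 for 2.5% and 0%. The simulation used a fixed spread around mean shares, without differences between pairs or runs. It averages over changed motifs and does not give the recovery for this break. Features were compared with exact sign-flip tests (scipy 1.17.1). Wilson intervals (95%) and floors of 3 counts cover counting error only. The study states that its pipeline filters out exact duplicates, and whether the remaining junctions are independent molecules was not tested. P-values measure the spread between libraries, whose cultures the labels do not describe.

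Pairs follow the replicate numbers of the labels. Paired libraries shared a sequencing run, and the study scaled CK-666 values to the control of the same replicate, but its methods state no pairing. Over motifs, deviations of paired libraries from group means correlated at 0.0164 to 0.198 for CK-666 and 0.0475 to 0.214 for NU7441, so not every pair was over 0.1. Alternatives changed the block, weights, pseudocount, motif filter, window, total and duplicate positions, and left out each replicate. Doses come from the methods; the wiskostatin and NU7441 doses differ between methods and legends in their unit. Named were Samhd1, the 3 comparators, the nearest motifs with junctions on either side and the 3 motifs with the highest correlation of share; the joins printed and the pattern past the cut were chosen after their values were seen.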

Additional observations from a re-analysis of the deposited data

Results flagged for a closer look

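In 16 groups of 6 libraries (8 measures in the DMSO and CK-666 libraries), 3 values stood apart from the rest of their group; chance alone flags about 1 in 20 groups. In DMSO replicate 5, 27.8% of junctions at Samhd1 were on the plus strand, against 40.2% in the next lowest library (36 junctions). In CK-666 replicate 5, the median distance from the cut was 31 bp against 5 bp in the next library, and insertions took 26.1% against 16.7% (23 junctions).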

How the results depend on the processing

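The share at the break under NU7441 kept its direction under every alternative and lost its call under 5. It was -1.13 on the log2 scale with no replicate block (adjusted p = 0.0580, 2 motifs called) and with each experiment fitted alone with its replicate block (adjusted p = 0.182, 6 motifs), -0.87 with voom weights (adjusted p = 0.0600) and -0.63 with unique positions (adjusted p = 0.433, 3 motifs). Leaving out a replicate gave -1.59 to -0.42 by limma and by the exact test, without the call in the absence of replicate 2, and 2 to 8 motifs called. A pseudocount of 2 and a window of 50 bp each called 6 motifs and motif junctions as the total 19, with Samhd1 among them. For CK-666 the log2 ratio ranged from -0.0633 to 0.0695 when a replicate was left out, in both tests, and turned negative without replicate 4 or 5. No other result at Samhd1 changed its call without the replicate block.

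Counting each position once turned the sign of differences that had not passed: for CK-666 over 20 bp -1.38 and overlaps of 1 to 5 bases 0.128 points, for NU7441 the plus strand 3.72, against Romo1 the plus strand -2.92, and against Arhgap21 blunt joins -1.52 and insertions 0.355. Against chromosome 2 it gave -4.87 for the plus strand and 6.11 for insertions, neither passing. With all other motifs of the genome as comparator, over 20 bp (5.52) and blunt joins (6.37) passed and overlaps of 1 to 5 bases turned to 2.54. The 7 control libraries not used for the choice gave -5.52 for the plus strand, -1.69 for long overlaps and 5.06 for insertions, and there none of the 24 differences passed, single breaks included (adjusted p of 0.125 or more). With 7 libraries a pass over 24 tests needs many differences at the smallest p, so this lack of a pass decides nothing. Over all 13 control libraries the long-overlap difference was -5.41, larger in size than in these 7. Without junctions past the cut, an alternative chosen after seeing the data, overlaps of 1 to 5 bases were 0.394, blunt joins 4.12 and insertions 3.41. These differences carry no test. Over the 26 libraries the step takes 174 of the 308 insertions at Samhd1, which shifts the shares there by construction. The cause of these shifts was not tested.

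Leaving out 1 pair moved CK-666 differences from -0.717 to 8.30 (plus strand), -4.18 to 0.148 (overlaps of 1 to 5 bases) and -2.65 to 0.786 (blunt), and NU7441 differences from -12.4 to 5.49 (plus strand), -6.50 to 10.5 (over 20 bp), -12.8 to 4.88 (overlaps of 1 to 5 bases) and -7.12 to 0.846 (insertions). Leaving out 1 control library moved the insertion difference to chromosome 2 between 3.78 and 5.52, past the threshold or just short of it (adjusted p = 0.0504 without DMSO replicate 1, 2 or 5), that to Romo1 in plus strand between -0.766 and 1.59, to Arhgap21 in blunt joins between -1.12 and 2.44, and to Dnmt3b in long overlaps between -0.103 and 1.70. Libraries with 4 to 25 junctions at the break limit all features.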
